A study of Mus musculus with 18 samples.

Results

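The expression of 10 genes of bone morphogenetic protein (BMP) signalling was followed in the mouse epididymis after loss of its testicular inputs: the ligands Bmp2, Bmp4, Bmp7 and Bmp8a, the receptors Bmpr1a, Bmpr1b and Bmpr2, and the target genes Id1, Id2 and Id3. They were chosen by name, as 10 of the 24346 genes listed with FPKM, fragment counts scaled to transcript length and library size. The tissue was the initial segment dissected together with the caput (IS-caput), from which mRNA of 18 libraries was sequenced, 3 for each of 6 groups. The testis acts on this tissue through sex steroids in the blood (endocrine action) and through proteins carried in the luminal fluid (lumicrine action).

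Bilateral orchidectomy (OD) removed both testes of wild-type mice and was compared with sham operation. Unilateral OD removed 1 testis of wild-type mice, so that the ipsilateral epididymis lost its own testis, and its contralateral epididymis served as the control. Both operations were done on B6D1F1 males at 8 weeks of age, and tissue was taken 4 weeks later, at 12 weeks of age. Nell2-/- mice, which lack the lumicrine ligand NELL2 but keep both testes, were compared with wild-type (WT) mice, both at 14 weeks of age and without operation. In every group 3 mice or epididymides were sampled, and the ipsilateral and contralateral sides came from the same 3 mice. Age and operation differed between the Nell2-/- comparison and the others, so tests of levels stay within a comparison and changes are compared across them. The strain of the Nell2-/- and WT mice was not given in the sources used here.

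BMP ligands are secreted dimers that bring together type I receptors, such as Bmpr1a and Bmpr1b, and type II receptors, such as Bmpr2. The type I receptor then phosphorylates SMAD1, SMAD5 or SMAD9, which enter the nucleus with SMAD4 and switch on targets, the Id genes being the best known. In the mouse, mutants of Bmp4 and of Bmp8a have defects of the epididymal epithelium, and a mutation of Bmp7 worsens those of Bmp8a mutants.

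The regions upstream of 4 of these genes are shown because their genes moved in different ways below, and because SMAD proteins can bind short DNA words. Each is the 250 bases before the transcription start in the mouse reference (RefSeq, GRCm38.p6, the assembly also called mm10), 5′ to 3′ on the strand of its gene. Capitals mark 3 words searched on both strands: GGCGCC, a SMAD-binding palindrome, CAGAC or its complement GTCTG, the SMAD box, and CCAAT or its complement ATTGG, a common promoter word that served as a contrast. None of the words overlapped another. The regions lie at chr12:25096093-25096342 on the minus strand for Id2, chr4:136143572-136143821 on the plus strand for Id3, chr4:123343253-123343502 on the minus strand for Bmp8a and chr14:46390670-46390919 on the minus strand for Bmp4.
Id2: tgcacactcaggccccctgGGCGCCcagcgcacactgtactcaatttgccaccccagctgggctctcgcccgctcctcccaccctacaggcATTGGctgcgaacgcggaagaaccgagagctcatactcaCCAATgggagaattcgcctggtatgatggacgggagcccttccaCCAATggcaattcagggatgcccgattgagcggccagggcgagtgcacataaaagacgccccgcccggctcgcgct
Id3: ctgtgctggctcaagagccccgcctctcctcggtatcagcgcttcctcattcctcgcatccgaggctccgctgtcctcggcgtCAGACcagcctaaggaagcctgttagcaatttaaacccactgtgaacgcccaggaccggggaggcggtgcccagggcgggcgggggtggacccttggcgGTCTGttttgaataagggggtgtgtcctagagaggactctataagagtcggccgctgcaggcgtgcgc
Bmp8a: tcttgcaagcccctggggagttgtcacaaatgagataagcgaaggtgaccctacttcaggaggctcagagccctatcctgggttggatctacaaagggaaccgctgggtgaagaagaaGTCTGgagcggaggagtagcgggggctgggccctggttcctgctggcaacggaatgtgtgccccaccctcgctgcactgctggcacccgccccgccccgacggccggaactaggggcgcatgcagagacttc
Bmp4: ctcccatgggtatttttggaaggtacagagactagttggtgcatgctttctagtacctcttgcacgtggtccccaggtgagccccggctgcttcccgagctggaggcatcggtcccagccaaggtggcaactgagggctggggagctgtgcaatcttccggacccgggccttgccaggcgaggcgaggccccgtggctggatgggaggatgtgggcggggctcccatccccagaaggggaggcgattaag

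The Id2 region held GGCGCC once, with its first base 231 bases before the start, and CCAAT 3 times. The Id3 region held the SMAD box 2 times, 167 and 68 bases before the start, and the Bmp8a region once, 132 bases before it. The Bmp4 region held none of the 3 words. Among 32851 mouse promoter regions of this length, GGCGCC was found in 9.59%, the SMAD box in 42.2% and CCAAT in 33.8%, so that a single SMAD box is common. Upstream regions of Bmpr1a, Bmpr1b and Bmpr2 were also searched: GGCGCC stood once in Bmpr1a, 198 bases before the start, and once in Bmpr2, 105 bases before it. Of the 3 annotated starts of Bmpr1b, 2 had a SMAD box and none had GGCGCC. A match of letters is a description of the window, not a binding site. No upstream region was available for Bmp2, Bmp7 and Id1, so these genes were not searched.

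All 10 genes passed the filter for testing, 0.1 FPKM in at least 3 libraries, which 17302 genes passed. Log2 fold changes are given on the scale of log2(FPKM + 0.1) with their standard error, and adjusted p are from limma with Benjamini-Hochberg adjustment over those 17302 genes. A gene is said to have risen or fallen where its adjusted p was under 0.05. In bilateral OD against sham, 6 of the 10 genes rose and 3 fell, where 30.4% of all genes tested rose and 31.4% fell. On the ipsilateral against the contralateral side 2 rose and 3 fell, where 16% of all genes rose and 18.6% fell. In Nell2-/- against WT 2 rose and 4 fell, where 17.8% rose and 18.6% fell. Since 61.7% of all genes moved in one direction or the other after bilateral OD, 9 members of 10 are to be read against that background. The 3 libraries of one group and the 3 of its control did not overlap for 63.3% of all genes in bilateral OD, 46.7% on the ipsilateral side and 48.9% in Nell2-/-. The median change over all genes tested was 0.02 on the log2 scale in each of the 3 comparisons. Because the tissue was sequenced whole, fewer cells of a type cannot be told apart from less RNA per cell in any of these changes.

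Every library held epithelial RNA, with the epithelial genes Pax2, Pax8, Cdh1 and Epcam present throughout. Of these, Pax2, Pax8 and Epcam rose in bilateral OD, by 1.4, 0.40 and 0.32 on the log2 scale (adjusted p = 1.15e-08, 3.77e-05 and 5.07e-05). Pax8 fell on the ipsilateral side (log2 fold change -0.57, adjusted p = 2.23e-06), while Pax2 rose there (0.90, adjusted p = 9.59e-06). Cdh1 and Epcam did not pass on that side (adjusted p = 0.241 and 0.36). The ratio of means in Nell2-/- over WT was 1.93 for Pax2, 0.613 for Pax8, 0.80 for Cdh1 and 0.93 for Epcam. Of the whole list of 12 caput epithelial markers 7 fell, 3 rose and 2 did not pass in bilateral OD. There 31.4% of all genes fell and 30.4% rose. On the ipsilateral side 7 of the 12 fell and 2 rose, where 18.6% of all genes fell and 16% rose. In Nell2-/- 8 fell and 3 rose, where 18.6% fell and 17.8% rose. The lipocalin Lcn9 was at 0 in all bilateral OD and Nell2-/- libraries. Lcn5, another lipocalin of the list, fell in bilateral OD but rose in Nell2-/-, with means of 15570 FPKM against 4211 FPKM in WT. In the whole series, an estimated 9860000 to 16400000 reads stood behind each library, judged from the smallest steps between FPKM values. Late germ cell transcripts, a trace of sperm in the lumen, summed to between 0 and 0.419 FPKM in bilateral OD and between 75.2 and 89.5 FPKM in sham, with Prm1, Tnp1, Smcp and Odf1 at 0 in all 3 bilateral OD libraries. Nell2 itself is made by germ cells of the testis and was near 0 in the epididymis in both genotypes, at 0, 0.0274 and 0 FPKM in Nell2-/- and at 0.130, 0.0302 and 0.0610 FPKM in WT, so it could not check the genotype labels here.

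**Figure D1:**
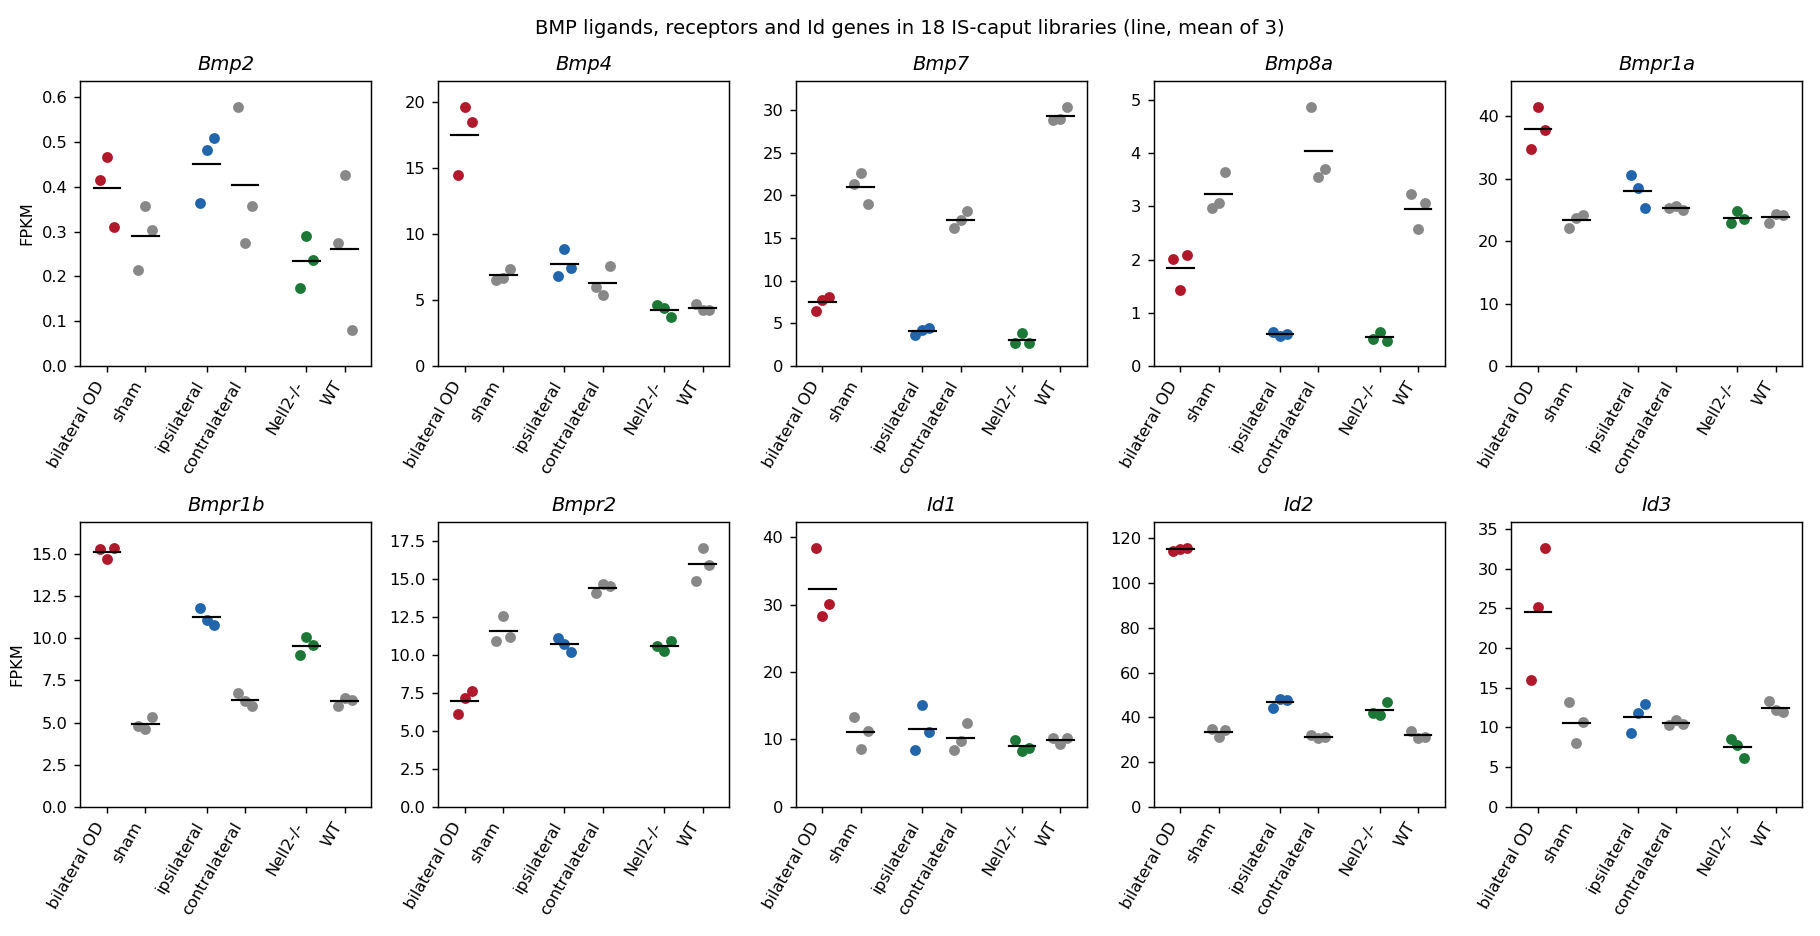
FPKM of the 10 genes in each of the 18 IS-caput libraries, 1 panel per gene with its own linear axis from 0. Points are libraries and lines the mean of 3. Bmp7 and Bmp8a lie low in bilateral OD, ipsilateral and Nell2-/- tissue beside their controls, while Bmp4, Id1 and Id3 stand highest in bilateral OD.

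Among the ligands, Bmp7 fell in all 3 comparisons, with a larger loss in FPKM than Bmp8a each time, though Bmp8a had the larger fold change on the ipsilateral side. Bmp7 belongs to the same ligand subgroup as Bmp5, Bmp6 and Bmp8a. Its level was 6.50, 7.79 and 8.14 FPKM in bilateral OD, against 21.4, 22.6 and 19 FPKM in sham. On the ipsilateral side it was 3.67, 4.25 and 4.44 FPKM, against 16.2, 17.1 and 18.1 FPKM on the contralateral side. In Nell2-/- it was 2.68, 3.92 and 2.68 FPKM, against 28.8, 28.9 and 30.4 FPKM in WT. Within every comparison the 2 groups stood far apart, and the ratio of means was 0.105 in Nell2-/- over WT. The log2 fold changes were -1.48 ± 0.12 in bilateral OD (adjusted p = 1.45e-08), -2.03 ± 0.12 on the ipsilateral side (adjusted p = 8e-10) and -3.23 ± 0.12 in Nell2-/- (adjusted p = 9.61e-13).

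Bmp8a, a ligand known in mouse for keeping germ cells and the epididymal duct, also fell in all 3 comparisons but at a lower level. It was at 2.01, 1.43 and 2.08 FPKM in bilateral OD, against 2.96, 3.06 and 3.65 FPKM in sham. The ipsilateral libraries held 0.639, 0.573 and 0.610 FPKM, against 4.87, 3.55 and 3.71 FPKM contralaterally. Nell2-/- libraries held 0.512, 0.641 and 0.470 FPKM, against 3.24, 2.57 and 3.06 FPKM in WT. No range overlapped that of its control, and the bilateral OD libraries lay between the ipsilateral and Nell2-/- libraries below and all 3 controls above. The log2 fold change was -0.79 ± 0.17 in bilateral OD (adjusted p = 7.37e-04), -2.54 ± 0.17 on the ipsilateral side (adjusted p = 3.16e-09) and -2.26 ± 0.17 in Nell2-/- (adjusted p = 1.15e-08). About 14 to 133 reads stood behind these values, and 4.45% of the read-length words of Bmp8a are shared with its near copy Bmp8b, which was too low to be tested.

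Bmp4, a ligand of the other main subgroup together with Bmp2, went the opposite way in bilateral OD. It was at 14.5, 19.6 and 18.4 FPKM in bilateral OD, against 6.53, 6.69 and 7.34 FPKM in sham. Every bilateral OD library lay far above every sham library. Its ratio of means was 2.55 and its log2 fold change 1.33 ± 0.14 (adjusted p = 1.67e-07). The ipsilateral side had 6.84, 8.88 and 7.38 FPKM, against 5.95, 5.35 and 7.55 FPKM on the contralateral side. These ranges overlapped, and the change of 0.30 ± 0.14 did not pass (adjusted p = 0.105). It passed when contralateral replicate 3 was left out (0.43, adjusted p = 0.0242), so this value rests on 1 library. Nell2-/- libraries, at 4.61, 4.41 and 3.72 FPKM, overlapped WT libraries, at 4.67, 4.20 and 4.24 FPKM (log2 fold change -0.05, adjusted p = 0.837). An exon of Bmp4 overlaps the gene Gm15217 on the opposite strand, which stayed at or below 0.330 FPKM.

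Bmp2, the remaining ligand, was close to the limit of detection, with about 3 to 27 reads per library. Its level was 0.416, 0.466 and 0.309 FPKM in bilateral OD, against 0.214, 0.357 and 0.303 FPKM in sham. Over all 18 libraries it lay between 0.0807 and 0.578 FPKM, and the groups of every comparison overlapped. Its log2 fold change was 0.35 in bilateral OD with a 95% interval of -0.37 to 1.07, so the interval holds changes in both directions. The adjusted p were 0.39 in bilateral OD, 0.749 on the ipsilateral side and 0.997 in Nell2-/-.

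Since Bmp7 and Bmp4 moved differently, their balance within each library was also taken, a measure chosen after the values had been seen. The ratio of Bmp7 to Bmp4 FPKM was 0.450, 0.398 and 0.442 in bilateral OD, against 3.27, 3.37 and 2.59 in sham. It was 0.536, 0.479 and 0.602 on the ipsilateral side, against 2.72, 3.20 and 2.40 on the contralateral side, and 0.582, 0.890 and 0.719 in Nell2-/-, against 6.16, 6.87 and 7.15 in WT. Bmp7 thus exceeded Bmp4 in all 9 control libraries and lay below it in all 9 libraries of the other groups. The exact two-sided permutation test gave p = 0.1 in each comparison, the smallest that 3 against 3 allows.

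**Figure D2:**
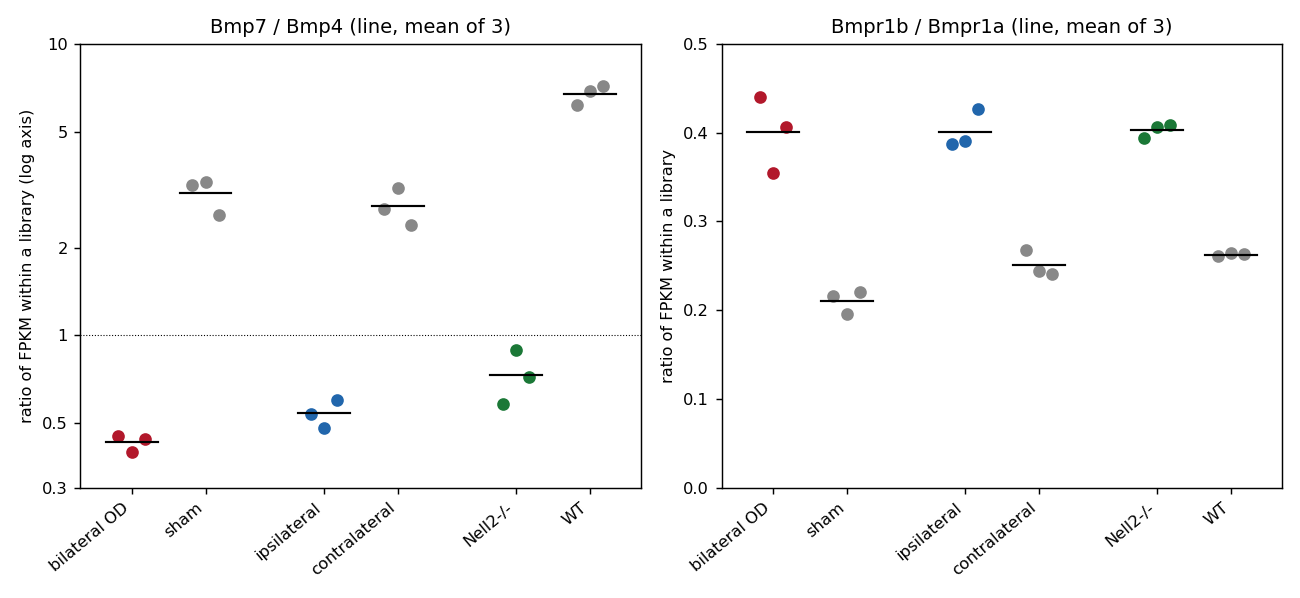
Ratio of FPKM within each library for Bmp7 to Bmp4 (left, log axis, dotted line at 1) and Bmpr1b to Bmpr1a (right, linear axis from 0). Points are libraries and lines the mean of 3. The Bmp7 to Bmp4 ratio is at most 0.890 in bilateral OD, ipsilateral and Nell2-/- libraries and at least 2.40 in control libraries, and the Bmpr1b to Bmpr1a ratio averages 0.401, 0.401 and 0.403 in bilateral OD, ipsilateral and Nell2-/- tissue.

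The receptors moved in different directions. Bmpr1b, a type I receptor, rose in all 3 comparisons. Its level was 15.3, 14.7 and 15.4 FPKM in bilateral OD, against 4.77, 4.64 and 5.32 FPKM in sham. It was 11.8, 11.1 and 10.8 FPKM on the ipsilateral side, against 6.76, 6.27 and 6.0 FPKM contralaterally, and 9.02, 10.1 and 9.61 FPKM in Nell2-/-, against 5.98, 6.45 and 6.35 FPKM in WT. The groups were wide apart each time, with replicates that varied little. The log2 fold changes were 1.61 ± 0.07 in bilateral OD (adjusted p = 2.98e-12), 0.82 ± 0.07 on the ipsilateral side (adjusted p = 1.13e-07) and 0.60 ± 0.07 in Nell2-/- (adjusted p = 3.41e-06).

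Bmpr1a, the other type I receptor of the group and the more abundant one per length, passed in bilateral OD and in neither of the other comparisons. It was at 34.8, 41.5 and 37.8 FPKM in bilateral OD, against 22.1, 23.7 and 24.2 FPKM in sham, with no overlap (log2 fold change 0.70 ± 0.07, adjusted p = 1.46e-07). Ipsilateral libraries held 30.5, 28.5 and 25.3 FPKM, against 25.3, 25.7 and 25.0 FPKM contralaterally. The third ipsilateral library lay within the control range, and the change of 0.15 ± 0.07 did not pass (adjusted p = 0.125). Without that library it did (0.22, adjusted p = 0.0249). Nell2-/- libraries, at 22.9, 24.8 and 23.5 FPKM, overlapped WT libraries, at 23.0, 24.4 and 24.1 FPKM (log2 fold change -0.01, 95% interval -0.16 to 0.14, adjusted p = 0.956). An exon of Bmpr1a overlaps the antisense gene Gm17110 on the opposite strand. Gm17110 is not among the genes listed with FPKM, so its level could not be read.

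Bmpr2, a type II receptor that pairs with both type I receptors, fell in all 3 comparisons. Its level was 6.14, 7.17 and 7.64 FPKM in bilateral OD, against 10.9, 12.6 and 11.2 FPKM in sham. It was 11.1, 10.7 and 10.2 FPKM on the ipsilateral side, against 14.1, 14.7 and 14.5 FPKM contralaterally. In Nell2-/- it was 10.6, 10.3 and 10.9 FPKM, against 14.9, 17.1 and 15.9 FPKM in WT. Every library lay below all libraries of its control group. The ipsilateral libraries overlapped the sham libraries, however, at means of 10.69 and 11.56 FPKM. Their contralateral control stood above sham, at a mean of 14.43 FPKM, a difference taken up below. The log2 fold changes were -0.72 ± 0.08 (adjusted p = 4.78e-07), -0.43 ± 0.08 (adjusted p = 4.24e-04) and -0.59 ± 0.08 (adjusted p = 1.4e-05).

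The make-up of the type I pair was also followed within libraries. The ratio of Bmpr1b to Bmpr1a FPKM was 0.441, 0.355 and 0.407 in bilateral OD, against 0.216, 0.195 and 0.220 in sham. It was 0.387, 0.390 and 0.426 on the ipsilateral side, against 0.267, 0.244 and 0.240 contralaterally, and 0.394, 0.406 and 0.409 in Nell2-/-, against 0.261, 0.264 and 0.263 in WT. The groups did not overlap in any comparison, and each exact permutation test gave p = 0.1, its smallest possible value. This ratio too was chosen after the values had been seen. Bmpr1a kept the higher FPKM of the pair in all 18 libraries.

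The Id genes encode helix-loop-helix proteins that lack a DNA-binding region and hold E proteins and related factors away from DNA. All 3 rose in bilateral OD, and Id2 also rose in the other comparisons. Id2 was the most abundant per length of the 10 genes in each of the 6 groups and the one whose rise was most even. Its level was 114, 115 and 116 FPKM in bilateral OD, against 34.9, 31.1 and 34.5 FPKM in sham. On the ipsilateral side it was 44.1, 48.2 and 47.7 FPKM, against 32.1, 30.7 and 31.3 FPKM contralaterally, and in Nell2-/- it was 41.8, 41.1 and 46.8 FPKM, against 34.0, 30.7 and 31.2 FPKM in WT. No group overlapped its own control, and the bilateral OD libraries stood far above all others. The log2 fold changes were 1.78 ± 0.06 in bilateral OD (adjusted p = 6.47e-14), 0.57 ± 0.06 on the ipsilateral side (adjusted p = 1.02e-06) and 0.43 ± 0.06 in Nell2-/- (adjusted p = 1.91e-05).

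Id1 had 38.4, 28.3 and 30.0 FPKM in bilateral OD, against 13.3, 8.54 and 11.2 FPKM in sham. All bilateral OD libraries lay far above the highest sham library, and the log2 fold change was 1.55 ± 0.20 (adjusted p = 4.05e-06). Ipsilateral libraries held 8.48, 15.1 and 11.1 FPKM, against 8.40, 9.77 and 12.4 FPKM contralaterally, and Nell2-/- libraries 9.95, 8.34 and 8.72 FPKM, against 10.2, 9.31 and 10.1 FPKM in WT. Both pairs overlapped. The changes of 0.16 (95% interval -0.26 to 0.58, adjusted p = 0.575) and -0.14 (95% interval -0.56 to 0.29, adjusted p = 0.646) did not pass.

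Id3 had 15.9, 25.2 and 32.7 FPKM in bilateral OD, against 13.2, 7.99 and 10.6 FPKM in sham. The groups did not overlap, but the bilateral OD libraries were spread over a 2-fold range (24.6 ± 8.37 FPKM, SD, n = 3), and the log2 fold change was 1.18 ± 0.22 (adjusted p = 2.53e-04). Ipsilateral libraries, at 9.28, 11.8 and 13 FPKM, surrounded the contralateral ones, at 10.4, 11 and 10.5 FPKM (log2 fold change 0.09, adjusted p = 0.805). Unlike Id2, Id3 was lower in Nell2-/-, at 8.57, 7.80 and 6.18 FPKM, against 13.3, 12.2 and 11.9 FPKM in WT. Those groups stood apart (log2 fold change -0.73 ± 0.22, adjusted p = 0.0159). The fall no longer passed without WT replicate 1 (-0.69, adjusted p = 0.0508) or without Nell2-/- replicate 3 (-0.60, adjusted p = 0.0728).

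Bilateral OD replicate 1 had the least Bmp4 and Id3 of its group, and also the least Bmp7, Bmpr1a, Bmpr2 and Id2. It had the most Id1, at 38.4 FPKM, against 28.3 and 30.0 FPKM in replicates 2 and 3. This library also stood apart in markers of fibroblasts, adipocytes and basal cells. The summed FPKM of 6 fibroblast markers was 229, 856 and 855 in bilateral OD replicates 1, 2 and 3, against 372, 303 and 291 in sham. Most of this sum came from Dcn, at 188, 749 and 736 FPKM in bilateral OD, against 199, 147 and 147 FPKM in sham. Within the list 2 of 6 markers rose and 3 fell. Col1a1 fell, with 5.78, 11.9 and 12.8 FPKM in bilateral OD, against 29.7, 26.5 and 23.3 FPKM in sham. Adipocyte markers summed to 15.5, 2.67 and 5.45 FPKM in bilateral OD, against 0.323, 1.34 and 0.282 FPKM in sham, and 3 of 4 rose. Markers of clear and narrow cells summed to 361, 295 and 301 FPKM in bilateral OD, against 137, 136 and 134 FPKM in sham, and 4 of 5 rose. Of these 5 markers 3 rose and 2 fell on the ipsilateral side, and likewise in Nell2-/-. Foxi1 was among those that rose, with means of 78.07 FPKM ipsilaterally and 37.44 FPKM contralaterally. Its means were 78.65 FPKM in Nell2-/- and 38.8 FPKM in WT. Smooth muscle markers summed to 240.1 to 319.5 FPKM in bilateral OD and to 1838 to 2189 FPKM in sham, a drop carried by Actg2, at 16.3, 11.1 and 13.9 FPKM in bilateral OD, against 1837, 1777 and 1537 FPKM in sham. Of the 6 smooth muscle markers 3 fell and 3 did not pass, Acta2 among them with means of 132.8 ± 21.5 FPKM in bilateral OD and 145.6 ± 23.9 FPKM in sham (SD, n = 3 each). Basal cell markers summed to 76.5, 154 and 149 FPKM in bilateral OD, against 133, 146 and 159 FPKM in sham, replicate 1 again being low, and 2 of 4 fell. Macrophage markers summed to 139, 156 and 160 FPKM in bilateral OD, against 139, 121 and 124 FPKM in sham, and 4 of 6 rose. These marker counts stand beside 30.4% of all genes that rose and 31.4% that fell in bilateral OD. The shares were 16% and 18.6% on the ipsilateral side, and 17.8% and 18.6% in Nell2-/-. None of these sums has a defining marker at 0 in bilateral OD, and their part in the changes of the BMP genes was not tested. Without bilateral OD replicate 1 the comparison of bilateral OD with sham called 9 of the 10 genes, as with it. The log2 fold changes were then 1.46 for Bmp4 and 1.46 for Id3.

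**Figure D3:**
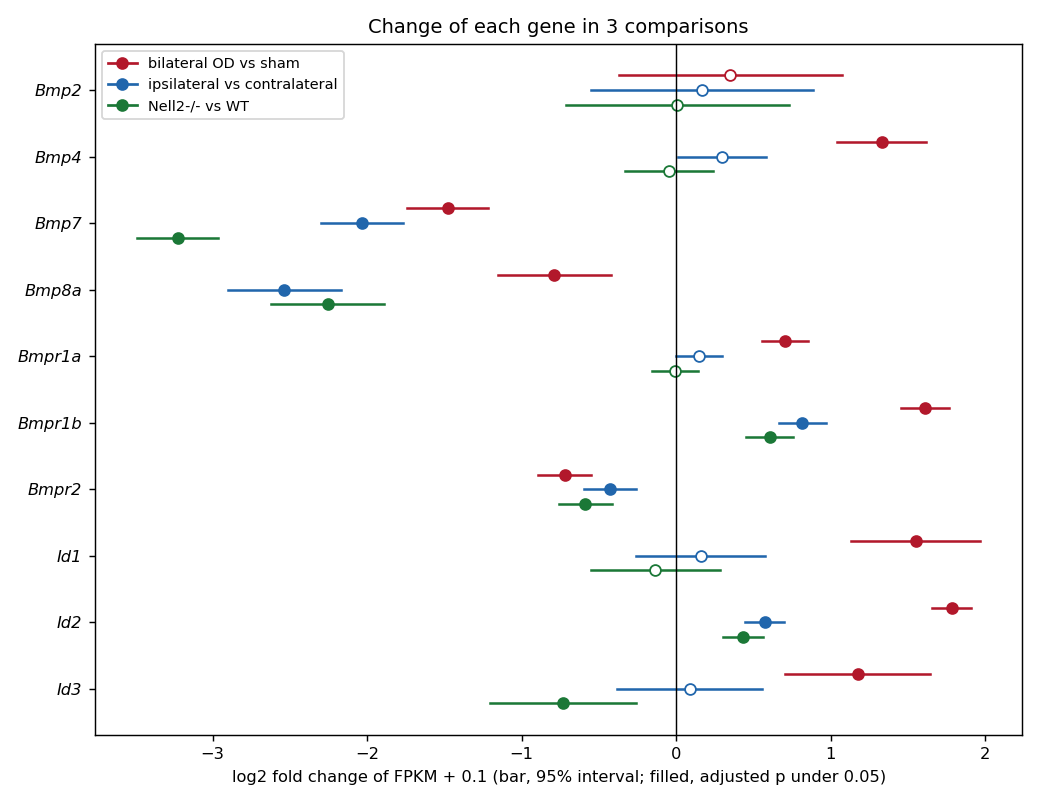
Log2 fold change of FPKM + 0.1 for each of the 10 genes in bilateral OD against sham (red), ipsilateral against contralateral (blue) and Nell2-/- against WT (green). Bars are 95% intervals and filled points have an adjusted p under 0.05. Bmp7, Bmp8a and Bmpr2 lie left of 0 and Bmpr1b and Id2 right of 0 in all 3 comparisons, while Bmp4, Bmpr1a and Id1 are filled only for bilateral OD.

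Across the 3 comparisons Bmp7, Bmp8a and Bmpr2 were lower each time, a pattern that 10.5% of all genes tested shared, and Bmpr1b and Id2 were higher each time, which 6.27% of genes did. Whether the size of a change differed between conditions was tested as a difference of changes in the same fit, in comparisons that have no library in common. Between bilateral OD and the ipsilateral side 8 of the 10 genes differed, where 37.4% of all genes did. The rises of Bmp4 (difference of log2 fold changes 1.03, adjusted p = 3.65e-04), Bmpr1a (0.56, adjusted p = 2.79e-04), Bmpr1b (0.79, adjusted p = 9.39e-06), Id1 (1.39, adjusted p = 8.63e-04), Id2 (1.21, adjusted p = 5.47e-09) and Id3 (1.09, adjusted p = 0.0119) were larger in bilateral OD. The falls of Bmp8a (1.75, adjusted p = 2.09e-05) and Bmp7 (0.55, adjusted p = 0.02) were smaller there. For Bmp7 the difference did not pass without sham replicate 3, bilateral OD replicate 3 or ipsilateral replicate 1 (adjusted p between 0.0532 and 0.0557) or with no filter on low values (adjusted p = 0.0527). Bmp2 did not differ beyond its error (0.18, adjusted p = 0.807), and Bmpr2 did not pass (-0.29, adjusted p = 0.0518). Bmpr2 passed in 5 of 20 alternatives: with a filter of 1 FPKM (adjusted p = 0.0434), without sham replicate 1 (0.0414), bilateral OD replicate 3 (0.0209) or ipsilateral replicate 3 (0.0449), and after a correction of each library for transcript length, chosen after the data were seen (-0.62, adjusted p = 2.96e-04).

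The ipsilateral change was also set against the Nell2-/- change. Of the 10 genes 1 differed between the ipsilateral and the Nell2-/- change, where 4.65% of all genes did. This was Bmp7, whose fall was smaller on the ipsilateral side by 1.19 ± 0.18 on the log2 scale (adjusted p = 6.36e-04). For the others the differences lay between -0.28 for Bmp8a, with a 95% interval of -0.80 to 0.23, and 0.82 for Id3, with an interval of 0.16 to 1.48, and none passed the test. Between bilateral OD and Nell2-/- 8 of the 10 genes differed, where 44.6% of all genes did. Bmp2 (0.34, adjusted p = 0.596) and Bmpr2 (-0.13, adjusted p = 0.357) did not, though Bmpr2 passed after the length correction (-0.48, adjusted p = 0.00209).

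The contralateral side was set against sham to see whether the control of unilateral OD had moved itself. Of the 10 genes 2 rose and 0 fell, where 6.65% of all genes rose and 5.99% fell. Bmpr1b averaged 6.34 ± 0.385 FPKM contralaterally and 4.91 ± 0.360 FPKM in sham (SD, n = 3 each; log2 fold change 0.36, adjusted p = 0.00434). Bmpr2 averaged 14.4 ± 0.329 FPKM contralaterally and 11.6 ± 0.898 FPKM in sham (log2 fold change 0.32, adjusted p = 0.0158). The longest transcript of Bmpr2 has 12899 bases, the longest of the 10 genes, and after the length correction the Bmpr2 change turned to -0.20 (adjusted p = 0.161). Without sham replicate 1 or contralateral replicate 2 Bmpr2 did not pass either (adjusted p = 0.0743 and 0.0579). Cell type markers differed between these tissues as well. Of 6 smooth muscle markers 3 rose and 1 fell, of 6 endothelial markers 2 rose and 0 fell, and of 12 caput epithelial markers 0 rose and 4 fell. The smooth muscle marker Myh11 averaged 55.3 FPKM contralaterally and 24.16 FPKM in sham. Their part in the changes of Bmpr1b and Bmpr2 was not tested.

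The order of the 6 groups differed from gene to gene. Bmp7 ran, from low to high, through Nell2-/-, ipsilateral, bilateral OD, contralateral, sham and WT, with Nell2-/- and ipsilateral libraries overlapping and every later step clear of the one before. Bmp8a had the same 3 groups at the bottom in the same order, while its 3 control groups overlapped at the top, at means of 2.96 to 4.04 FPKM. Bmpr1b ran through sham, WT, contralateral, Nell2-/-, ipsilateral and bilateral OD, with an overlap only between WT and contralateral libraries. For Id1 the 5 groups other than bilateral OD overlapped with their neighbours, at means of 9.0 to 11.5 FPKM, and bilateral OD stood apart at 32.3 ± 5.44 FPKM (SD, n = 3). Id2 fell into 3 levels, with contralateral, WT and sham tissue at means of 31.3 to 33.5 FPKM, Nell2-/- and ipsilateral tissue at 43.2 and 46.7 FPKM, and bilateral OD at 115 FPKM. Bmp4 had Nell2-/- and WT lowest, at means of 4.25 and 4.37 FPKM, below the other 4 groups. Nell2-/- and WT mice differed from those groups in both age and operation, and their strain was not given, so these cannot be told apart.

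The genes whose profile over the 18 libraries was nearest to each member were found by the root mean square distance of centred log2 values among 12944 genes whose mean reached 1 FPKM, and are given as a description. For Bmp7 these were Srd5a1 (steroid 5-alpha reductase 1, distance 0.234), Fut2 (0.236) and Ier3 (0.240), beside an SD of Bmp7 itself of 1.25. Srd5a1, the enzyme that makes dihydrotestosterone, was at 4.15, 4.17 and 4.57 FPKM in bilateral OD, against 15.7, 15.9 and 13.8 FPKM in sham, and at 2.09, 2.18 and 2.86 FPKM in Nell2-/-, against 18, 17.8 and 17.3 FPKM in WT. For Bmp8a they were Phyhip (0.293), Ddit4l (0.309) and St3gal1 (0.323), and for Bmp4 the lysozyme genes Lyz2 (0.226) and Lyz1 (0.229) and Dbndd2 (0.236). Bmpr1b lay nearest to Card10 (0.111), Sema3c (0.145) and Tfcp2l1 (0.148). Id2 lay nearest to Rarg, which encodes a retinoic acid receptor (0.104), Pck2 (0.116) and Grb7 (0.126). Id1 lay nearest to Gpr146 (0.164), Rps6ka1 (0.225) and Ms4a7 (0.232), and Id3 to Cxcl16 (0.237), Mxra8 (0.239) and Fzd1 (0.242).

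The rest of the pathway was read from lists of 62 genes, of which 53 passed the filter. In bilateral OD 25 of the 53 rose and 11 fell, on the ipsilateral side 9 rose and 8 fell, and in Nell2-/- 11 rose and 10 fell. Over all genes tested the shares that rose and fell were 30.4% and 31.4% in bilateral OD, 16% and 18.6% on the ipsilateral side, and 17.8% and 18.6% in Nell2-/-, so that the list was near this background in the last 2 comparisons. The median log2 fold change of the 53 was 0.46 in bilateral OD, 0.14 on the ipsilateral side and -0.01 in Nell2-/-, beside 0.02 over all genes tested each time.

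Of the other BMP and GDF ligands 7 of 14 could be tested, and Bmp6, a close relative of Bmp7, was the one that rose in bilateral OD. It was at 6.94, 6.75 and 5.92 FPKM in bilateral OD, against 2.28, 1.94 and 1.49 FPKM in sham (log2 fold change 1.74 ± 0.17, adjusted p = 1.05e-07). Its changes on the ipsilateral side (0.17, adjusted p = 0.489) and in Nell2-/- (-0.26, adjusted p = 0.276) did not pass. Bmp6 thus moved opposite to Bmp7 in bilateral OD. Gdf10, the ligand with the highest level in this list, had 2.22, 8.12 and 9.28 FPKM in bilateral OD, against 9.71, 8.76 and 7.06 FPKM in sham, and was low only in bilateral OD replicate 1 (log2 fold change -0.60, adjusted p = 0.18). Gdf15 did not pass in any of the 3 comparisons, and Gdf9, at or below 0.434 FPKM, passed on the ipsilateral side (1.38, adjusted p = 0.0312) on values listed at 0 in 2 of 3 contralateral libraries.

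Of 8 further receptors and co-receptors 4 rose and 2 fell in bilateral OD, 2 rose and 1 fell on the ipsilateral side, and 3 rose and 1 fell in Nell2-/-. Over all genes tested 30.4% rose and 31.4% fell in bilateral OD, 16% and 18.6% on the ipsilateral side, and 17.8% and 18.6% in Nell2-/-. Tgfbr3 (betaglycan), which can present BMP and TGF-beta ligands, rose in all 3, by 1.41 ± 0.12 in bilateral OD, 0.37 ± 0.12 on the ipsilateral side and 0.56 ± 0.12 in Nell2-/- (adjusted p = 1.51e-08, 0.0219 and 0.00125). Rgma, a membrane-anchored BMP co-receptor, rose in bilateral OD by 1.18 ± 0.16 (adjusted p = 5.72e-06), and Rgmb rose by 0.23 in Nell2-/- (adjusted p = 0.0289). Endoglin (Eng), a co-receptor known from endothelium, fell in all 3, by 0.79, 0.90 and 1.12 on the log2 scale (adjusted p = 1.45e-04, 1.1e-04 and 8.4e-06). Endothelial markers fell with it in part: 5 of 6 were lower in Nell2-/-, where their sum was 17.3 to 22.2 FPKM, against 41.3 to 41.9 FPKM in WT. On the ipsilateral side 3 of 6 were lower, with a sum of 26.9 to 28.1 FPKM, against 41.2 to 49.4 FPKM contralaterally. In bilateral OD 2 of 6 fell and 1 rose, the sum being 26.4 to 31.0 FPKM in bilateral OD and 27.0 to 38.1 FPKM in sham. No endothelial marker was at 0 throughout a group, and their part in the fall of Eng, or in the changes of the 10 genes, was not tested.

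Among 8 SMADs and SMAD ubiquitin ligases 5 rose and 2 fell in bilateral OD, 1 rose and 4 fell on the ipsilateral side, and 1 rose and 3 fell in Nell2-/-. The shares of all genes that rose and fell were 30.4% and 31.4%, 16% and 18.6%, and 17.8% and 18.6%, in the same order. The signal carriers Smad1 and Smad4 rose in bilateral OD by 0.41 ± 0.08 (adjusted p = 2.05e-04) and 0.51 ± 0.06 (adjusted p = 1.38e-06), and Smad1 rose by 0.27 on the ipsilateral side (adjusted p = 0.0139). The carrier Smad5 was higher in bilateral OD, with means of 16.24 FPKM against 13.12 FPKM in sham, and lower elsewhere. Its means were 10.35 FPKM ipsilaterally against 13.26 FPKM contralaterally, and 10.24 FPKM in Nell2-/- against 15.23 FPKM in WT. No range of Smad5 overlapped that of its control. Smad9 was scarce, at 0.243, 0.386 and 0.477 FPKM in bilateral OD, against 0.0695, 0.0993 and 0.197 FPKM in sham, and rose there (1.09, adjusted p = 0.00825) and in Nell2-/- (1.37, adjusted p = 0.00303). Smurf2, a ubiquitin ligase that marks BMP SMADs and receptors for breakdown, fell in all 3 comparisons, by 0.32, 0.24 and 0.30 on the log2 scale (adjusted p = 3.34e-04, 0.00744 and 0.00133).

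Extracellular antagonists and modulators were tested for 18 of 20 genes, and 6 rose and 5 fell in bilateral OD, 4 rose and 1 fell on the ipsilateral side, and 6 rose and 3 fell in Nell2-/-. In bilateral OD 30.4% of all genes rose and 31.4% fell, so the list was near this background there. The shares of all genes were 16% and 18.6% on the ipsilateral side and 17.8% and 18.6% in Nell2-/-. Nbl1 (DAN), a secreted BMP antagonist, was the most abundant of the named ones, at 106, 144 and 149 FPKM in bilateral OD, against 41.7, 32.8 and 39.97 FPKM in sham, and rose by 1.79 ± 0.11 in bilateral OD, 0.61 ± 0.11 on the ipsilateral side and 0.41 ± 0.11 in Nell2-/- (adjusted p = 1.98e-10, 2.92e-04 and 0.00577). Sostdc1, another antagonist, was at 5.74, 6.07 and 5.25 FPKM in bilateral OD and listed at 0 in all 3 sham libraries (adjusted p = 9.11e-12). It was also higher on the ipsilateral side, at 0.692, 0.449 and 0.765 FPKM, against 0.10, 0.0543 and 0.0517 FPKM contralaterally (adjusted p = 1.79e-05). Its change in Nell2-/-, at 0.0840, 0.210 and 0.281 FPKM, against 0.0496, 0 and 0 FPKM in WT, rested on values near the limit of detection (adjusted p = 0.00167). Fst (follistatin) rose by 2.26 ± 0.31 in bilateral OD (adjusted p = 7.28e-06), while its relative Fstl3 had 0.680, 0.895 and 0.780 FPKM in bilateral OD, against 7.76, 8.66 and 8.72 FPKM in sham (log2 fold change -3.27 ± 0.14, adjusted p = 1.73e-12).

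Fstl3 did not follow this fall elsewhere: it rose in Nell2-/- by 0.90 ± 0.14 (adjusted p = 6.82e-05), and its ipsilateral change was 0.31 (adjusted p = 0.107). Chordin-like 1 (Chrdl1) fell in bilateral OD by 1.94 on the log2 scale (adjusted p = 1.64e-07), with changes of -0.20 and 0.30 on the ipsilateral side and in Nell2-/- that did not pass (adjusted p = 0.437 and 0.243). Chordin-like 2 (Chrdl2) had the other pattern, with a change of -0.15 in bilateral OD (adjusted p = 0.532), and rises of 1.01 on the ipsilateral side (adjusted p = 7.68e-04) and 1.5 in Nell2-/- (adjusted p = 1.18e-05). Bmp1, a protease that frees BMPs by cleaving chordin and is not itself a BMP ligand, fell in all 3 comparisons, by 1.31, 0.35 and 0.38 on the log2 scale (adjusted p = 4.79e-09, 0.0125 and 0.00673). Bambi, a receptor decoy that BMP signalling itself can induce, rose in bilateral OD (1.44, adjusted p = 2.06e-09) and in Nell2-/- (0.93, adjusted p = 1.53e-06), with a change of 0.10 on the ipsilateral side (adjusted p = 0.521).

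**Figure D4:**
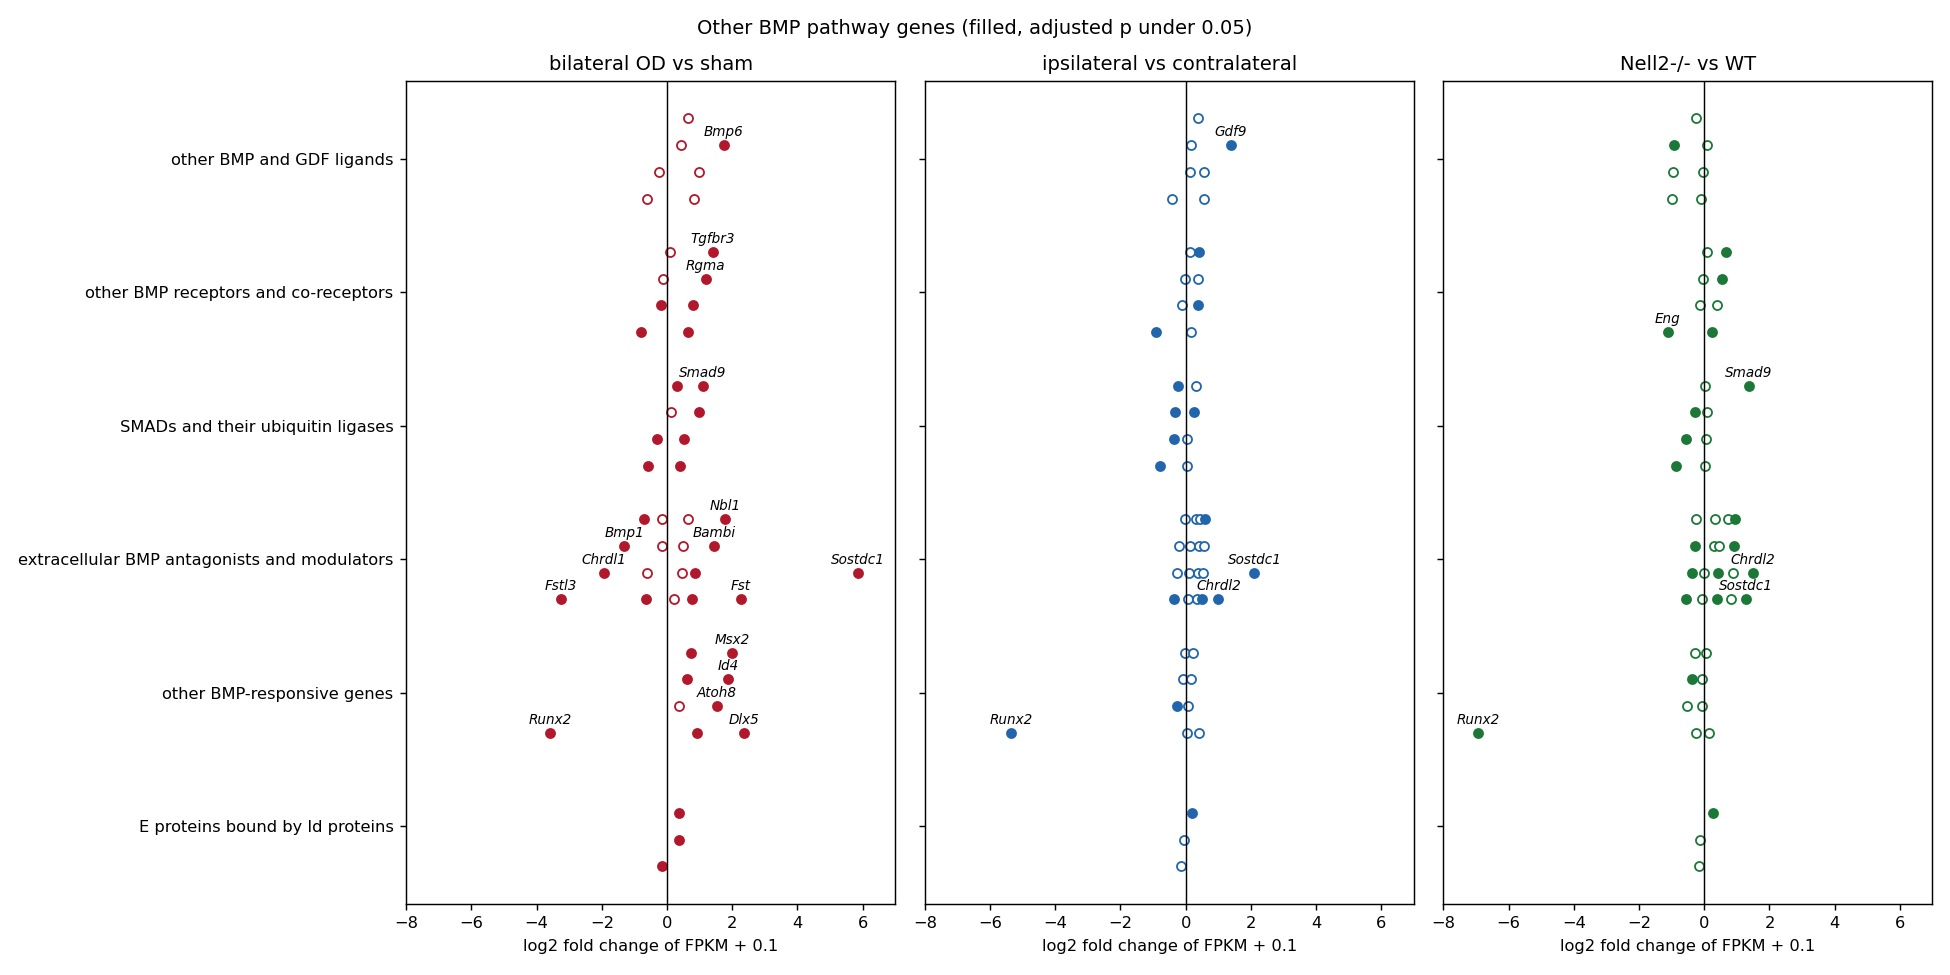
Log2 fold change of FPKM + 0.1 for the 53 tested genes of 6 BMP pathway lists in bilateral OD against sham (left), ipsilateral against contralateral (middle) and Nell2-/- against WT (right). Filled points have an adjusted p under 0.05, names mark those with a change of at least 1 on the log2 scale, and the height within a row only separates points. In bilateral OD 25 genes are filled to the right of 0, and 9 and 11 in the other panels.

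Other genes known to respond to BMPs rose in bilateral OD in 7 of 9 cases and fell in 1, with 0 rising and 2 falling in each of the other comparisons. Of all genes tested 30.4% rose and 31.4% fell in bilateral OD, and 18.6% fell in each of the others, so 2 of 9 falling is near that background. Id4, the fourth Id gene, was at 14.2, 15.4 and 16.2 FPKM in bilateral OD, against 4.69, 4.17 and 3.44 FPKM in sham (log2 fold change 1.88 ± 0.13, adjusted p = 1.62e-09). Its levels overlapped between groups on the ipsilateral side and in Nell2-/- (changes of -0.08 and -0.25, adjusted p = 0.709 and 0.169). Msx2, Dlx5 and Atoh8, transcription factors used as BMP targets in bone and other tissues, rose in bilateral OD by 2.0 ± 0.30, 2.36 ± 0.42 and 1.53 ± 0.28 (adjusted p = 1.76e-05, 1.07e-04 and 1.59e-04) and passed in neither of the other comparisons, at levels that stayed below 5 FPKM.

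Runx2, a transcription factor of bone that BMPs induce there, went far in the other direction. It was at 1.89, 2.03 and 1.71 FPKM in bilateral OD, against 23.8, 25.5 and 21.8 FPKM in sham, and at 0.393, 0.384 and 0.294 FPKM on the ipsilateral side, against 18.1, 17.8 and 19.3 FPKM contralaterally. In Nell2-/- it was at 0.150, 0.118 and 0.0902 FPKM, against 24.9, 28.9 and 25.9 FPKM in WT. These levels put bilateral OD above the ipsilateral side and Nell2-/-, the same order as for Bmp7 and Bmp8a (log2 fold changes -3.59, -5.35 and -6.93, adjusted p = 5.97e-14, 9.4e-16 and 1.82e-17). The E proteins that Id proteins bind moved little: Tcf3 rose in all 3 comparisons, by 0.36, 0.19 and 0.27 (adjusted p = 5.77e-05, 0.02 and 0.00164), and Tcf4 rose (0.38, adjusted p = 0.00834) and Tcf12 fell by 0.17 (adjusted p = 0.0255) in bilateral OD.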

How the data were processed

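The authors deposited FPKM per gene. They had mapped single-ended 101-base reads of strand-marked mRNA libraries to mm10 (TopHat2 2.1.1) and computed FPKM with Cufflinks 2.2.1. The values are named normalized, and the added normalization, and whether strand was used in counting, were not given in the sources used here. The numbers of reads behind a value are estimates. Log2(FPKM + 0.1) was fitted with limma 3.58.1 (R 4.3.3, eBayes with trend and robust) on 6 group means over 18 libraries, 12 residual degrees of freedom. Genes reaching 0.1 FPKM in at least 3 libraries were tested (17302; 7044 left out), two-sided, with Benjamini-Hochberg adjustment and a threshold of 0.05. Errors are SD of 3 libraries for FPKM and standard errors for log2 fold changes. The fit was also run on simulated data. Far fewer genes were changed there than were called in bilateral OD, so no support is drawn from that run. Ratios used exact permutation tests (scipy 1.17.1). Named beyond the 10 genes are list genes that passed with a log2 change of at least 1, otherwise up to 4 per list with the highest mean FPKM, and the 3 nearest genes by profile of each member changed by at least 1. Smad5 was named outside this rule, as a further signal carrier. The members and lists were chosen with earlier results of these data known. Alternatives were 1 or 0.01 FPKM added, no filter or a filter of 1 FPKM, median-ratio scaling, the libraries of a comparison alone, a replicate block, each library left out and, added after the data were seen, a transcript-length correction.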

Additional observations from a re-analysis of the deposited data

Results flagged for a closer look

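Bmp7 was singled out because the loss of 1 testis and the loss of NELL2 moved it by amounts that differed in a test of the difference itself. Late germ cell transcripts summed to 2.32 to 5.18 FPKM on the ipsilateral side, against 62.0 to 88.2 FPKM contralaterally, and to 230.9 to 263.1 FPKM in Nell2-/-, against 157.8 to 250.8 FPKM in WT. Its log2 fold change was -2.03 on the ipsilateral side and -3.23 in Nell2-/-, a difference of 1.19 ± 0.18 (limma, adjusted p = 6.36e-04). Each of the 3 ipsilateral libraries lay below each of the 3 contralateral ones, as did each Nell2-/- library beside WT. The control levels differed as well, at 17.1 ± 0.953 FPKM contralaterally and 29.3 ± 0.872 FPKM in WT (SD, n = 3 each), and the 2 comparisons differ in age (12 and 14 weeks) and operation, whose part in the difference cannot be told apart.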

How the results depend on the processing

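For the 10 genes, 70 log2 fold changes were recomputed under 1153 combinations of result and alternative, of which 1111 kept direction and side of the threshold, 10 lost and 9 gained the call, and 23 changed sign. Every call in bilateral OD against sham was kept under each of these alternatives. Sign changes concerned uncalled values, except Bmpr2 in contralateral tissue against sham. With 1 FPKM added, Bmp2 in Nell2-/- turned to -0.023. After length correction Bmpr1a in Nell2-/- turned to 0.022, and in contralateral tissue against sham Bmpr1a turned to -0.014, Bmpr2 to -0.20, Id1 to 0.025 and Id2 to 0.0079. With each library left out in turn, the ipsilateral change lay between -0.023 and 0.40 for Bmp2, -0.053 and 0.36 for Id1 and -0.016 and 0.22 for Id3. The Nell2-/- change lay between -0.43 and 0.35 for Bmp2, -0.11 and 0.044 for Bmp4 and -0.039 and 0.018 for Bmpr1a, and the contralateral change against sham between -0.28 and 0.036 for Id1 and -0.16 and 0.20 for Id3. For Bmp2 the difference of the bilateral OD from the ipsilateral change lay between -0.054 and 0.37, and that of the ipsilateral from the Nell2-/- change between -0.18 and 0.59. The cause of these shifts was not tested. Of the genes called in contralateral tissue against sham, 2 members and 5 pathway genes, length correction left 1 and 2, the 6 libraries alone left 2 pathway genes, and leaving out a library left 1 to 2 and 1 to 4. With the libraries of the comparison alone, 2 members rather than 1 differed between the ipsilateral and the Nell2-/- change, the second being Id3 (0.82, adjusted p = 0.0166).

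Same-numbered libraries did not deviate together (r between -0.0981 and 0.117), so the numbers were not taken to pair samples, also for the 2 sides of 1 mouse. A replicate block left 0 members and 1 pathway gene called in contralateral tissue against sham and changed no other call of a member. With a filter of 1 FPKM Bmp2 was not tested.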
